A study of Mus musculus with 12 samples.

Results

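The chemokines and chemokine receptors are the genes whose symbol begins with Ccl, Cxcl, Ccr or Cxcr and a number, together with Cx3cl1, Cx3cr1, Xcl1, Xcr1 and Ackr1 to Ackr4. On the arrays 57 such genes had a probe, 34 ligands and 23 receptors, of 20660 genes in all, and each was read from its brightest probe. The samples were subcutaneous white adipose tissue (scWAT) and brown adipose tissue (BAT) of male C57Bl6/J wild-type (WT) mice and of male Lr11-/- littermates on the same background, aged 12 weeks, with 3 arrays in each of the 4 groups. Lr11-/- mice lack LR11, the product of Sorl1, and all mice of both genotypes ate a high-fat diet (HFD) with 60% of its calories from fat, given in the labels both as 4 weeks long and as starting at weaning. The study asked what loss of LR11 does to gene expression in the fat of HFD-fed mice, and no label ties the arrays of scWAT and BAT to the same animals.

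Chemokines are small secreted proteins that guide leukocytes to the place where they are made, and their receptors are G protein-coupled receptors on the arriving cells. Some ligands are switched on in inflammation, such as Ccl2, which draws monocytes through Ccr2, and Cxcl1 and Cxcl2, which draw neutrophils through Cxcr2, while others such as Cxcl12 are made in resting tissue and hold cells in place. Atypical receptors bind chemokines without G protein signalling and remove or move them, and macrophages that enter obese fat are known both to make and to follow these signals.

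Levels are given as log2 of the intensity over the array's 75th percentile, so that 0 is the 75th percentile of that array and a step of 1 is a doubling. A probe was called well above background by the scanner software, and the dimmest such signal lay between -5.13 and -4.28 on the 12 arrays. Of the 57 genes 28 were well above background on all 12 arrays, 11 on 1 array each and 2, Ccl26 and Xcr1, on none. The test took a probe if some group had a signal well above background on each of its 3 arrays, which left 38 of the 57 genes and 32118 of 55681 probes. The 19 genes outside the test are described by their single values.

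Sorl1 was lower on the Lr11-/- arrays, by 4.34 on the log2 scale in scWAT (SE 0.42, limma adjusted p = 0.0063) and by 3.63 in BAT (SE 0.42, adjusted p = 0.032). The arrays labelled scWAT differed from each other in their markers. Ucp1, the uncoupling protein that defines brown fat, was at -4.63, -4.52 and 2.92 on the WT scWAT arrays, at 4.39, 9.75 and 10.05 on the Lr11-/- scWAT arrays and between 9.45 and 10.07 on the 6 BAT arrays. On 2 of the 3 Lr11-/- scWAT arrays it therefore stood within the range of BAT, as did the summed level of all 6 brown adipocyte markers on 1 of these (3340, against 2610 to 3510 in BAT) with the other at 3630. All 8 skeletal muscle markers were well above background on 5 arrays (WT scWAT 3, Lr11-/- scWAT 1, WT BAT 1, WT BAT 3 and Lr11-/- BAT 1). The arrays came as a first series, with replicate 1 of each group, and a second series with replicates 2 and 3. In bulk tissue, fewer cells of a type and less RNA per cell cannot be told apart.

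**Figure D1:**
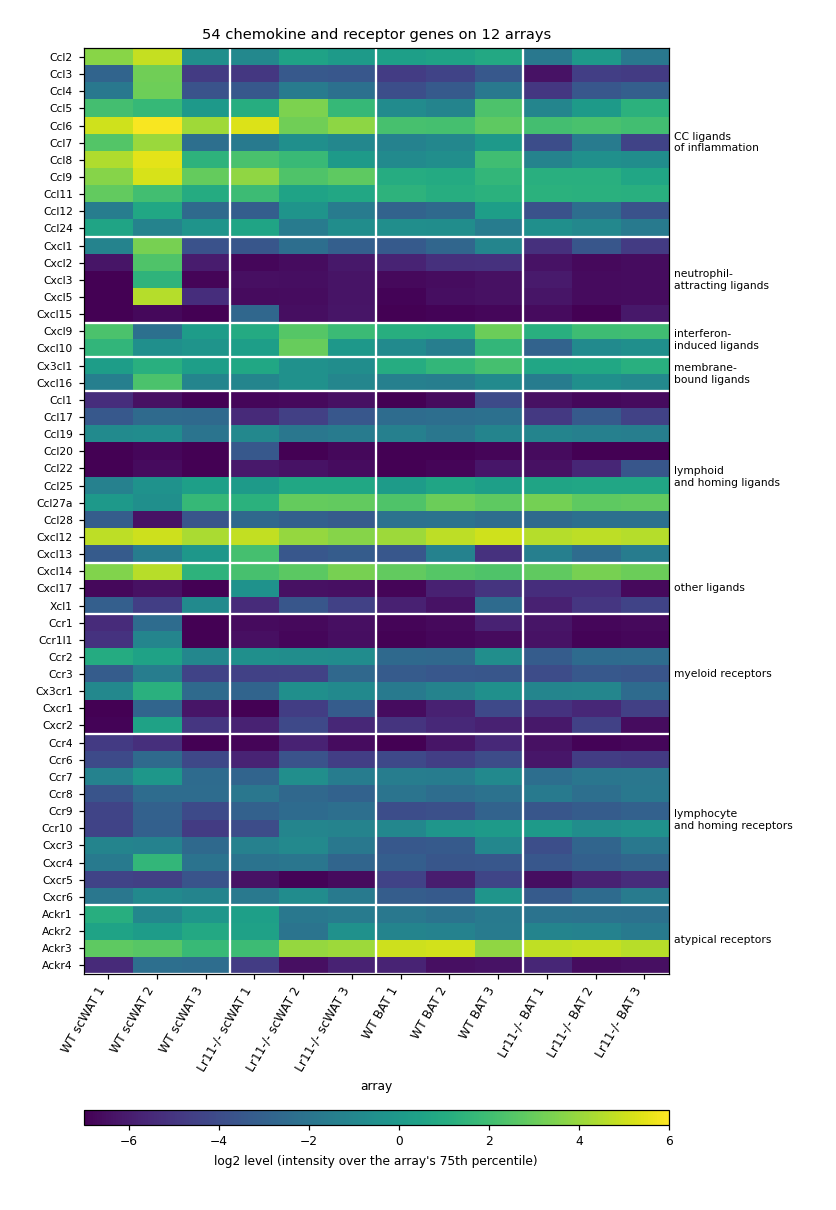
Levels of 54 of the 55 chemokine and receptor genes that were well above background on at least 1 array (rows, by role) on each of the 12 arrays (columns); colour gives the log2 level relative to the array's 75th percentile. The array WT scWAT 2 has the brightest column among the neutrophil-attracting ligands, with Cxcl5 at 4.55.

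Some arrays stood apart from the others of their group. WT scWAT 2 held the highest of the 12 levels for 26 of the 55 genes with a signal (47.3%), where it held the highest for 24.5% of all probes with a signal. It was at least 4-fold above both other WT scWAT arrays for 14 of the 55 (25.5%, against 4.68% of all probes). Among them were 4 of the 5 neutrophil-attracting ligands. Cxcl5, which attracts neutrophils through Cxcr2, was at 4.55 on WT scWAT 2 and not well above background on any of the other 11 arrays, at least 456-fold lower there. Cxcl2 stood at 2.42 on this array (at least 104-fold above the others) and Cxcl3 at 1.46 (at least 53.3-fold), again with no other array well above background. Cxcl1 was at 3.35 on WT scWAT 2, at -1.21 on WT scWAT 1 and at -3.72 on WT scWAT 3, and its highest level elsewhere was -1.06 on WT BAT 3. Their shared receptor Cxcr2 was at 0.47 on this array, while the next highest of the 12 was -4.12.

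**Figure D2:**
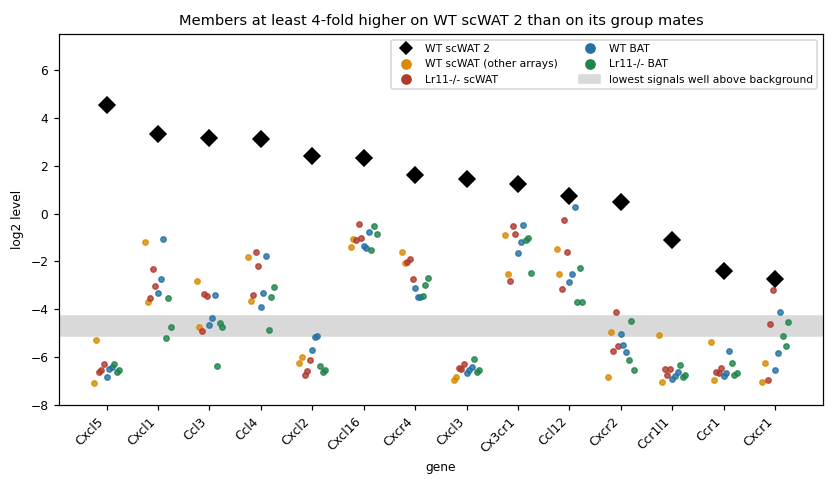
Log2 levels of the 14 genes that were at least 4-fold higher on WT scWAT 2 (black diamonds) than on both other WT scWAT arrays; circles are the other 11 arrays, coloured by group, and the grey band spans the lowest signals well above background on the 12 arrays. Cxcl5, Cxcl2 and Cxcl3 have a diamond far above the band and no circle above it.

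Cxcl1, Cxcl2 and Cxcl3 lie on mouse chromosome 5, and the 150 bases before their starts are shown because these 3 ligands were high together on a single array. The sequences are from RefSeq (GRCm38.p6), all on the + strand, at chr5:90891095-90891244 (Cxcl1), chr5:90903749-90903898 (Cxcl2) and chr5:90785951-90786100 (Cxcl3). Capitals mark matches to the NF-kB consensus, searched on both strands, where matches on both strands overlap by all but 1 base at each end. NF-kB is the transcription factor through which inflammatory cytokines act on many genes.
Cxcl1: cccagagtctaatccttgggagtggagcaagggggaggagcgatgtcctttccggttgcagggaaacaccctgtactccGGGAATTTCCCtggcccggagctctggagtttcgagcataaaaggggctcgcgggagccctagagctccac
Cxcl2: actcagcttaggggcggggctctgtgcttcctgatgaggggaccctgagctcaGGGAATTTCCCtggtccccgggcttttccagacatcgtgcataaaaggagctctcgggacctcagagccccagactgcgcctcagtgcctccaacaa
Cxcl3: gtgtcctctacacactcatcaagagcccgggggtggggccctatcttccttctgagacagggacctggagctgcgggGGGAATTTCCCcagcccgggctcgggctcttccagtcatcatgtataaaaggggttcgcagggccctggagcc

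The same 11 bases, GGGAATTTCCC, stood in all 3 promoters, at bases -71 to -61 (Cxcl1), -97 to -87 (Cxcl2) and -73 to -63 (Cxcl3) counted back from the start. Over the 250 bases before the start, 7.25% of all 32851 promoters held the motif, as did 11 of the 43 genes described here that had a promoter in the table. Of the 14 genes high on WT scWAT 2, 11 had a promoter in the table and 4 a match, the fourth being Ccr1. Ccl3 and Cxcr2 had no match in this window. A match describes the letters only and binding was not measured.

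The other genes high on this array included CC ligands and receptors of myeloid cells. The inflammatory ligands Ccl3, which acts on Ccr1, and Ccl4 were at 3.16 and 3.11, 62.9-fold or more and 26.1-fold or more above every other array. Ccr1 (-2.41) and Ccr1l1 (-1.09) were well above background on this array alone. Cxcl16, a membrane-bound ligand, was at 2.32 against at most -0.42 elsewhere, and Cxcr4, the receptor of Cxcl12, at 1.63 against at most -1.62. Cx3cr1 (1.24), Ccl12 (0.74) and Cxcr1 (-2.74) completed the 14. Cxcl9, induced by interferon gamma, went the other way and had its lowest level of the 12 there (-2.20, with 2.31 and 0.18 on the other WT scWAT arrays).

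Markers of other cells moved with these genes on WT scWAT 2. The neutrophil genes S100a8 and S100a9 were at 5.89 and 7.43 there, against at most 3.67 and 2.08 on the other arrays. Of 6 named neutrophil markers 5 were well above background there and 4 or 5 on every other array, with Ngp at background on all 12. The summed neutrophil level was 520, against 142 to 203 on the other 11 arrays. Most of each sum came from Csf3r, which was bright on all 12 arrays (6.97 to 8.15), also in BAT. The 9 macrophage markers summed to 347, against 47.6 to 106. The inducers Il1b (4.06, at most -1.85 elsewhere), Il6 (2.49, at most -3.40) and Tnf (-1.03, at most -2.79) were also highest there. The 6 adipocyte markers summed to 358, the lowest of the 12, with Adipoq at 3.84 against 6.61 to 8.55. The part of these cells in the levels above was not tested.

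Lr11-/- scWAT 1 held a different set. Cxcl17, a ligand of mucosal epithelia, was at -0.36 there and not well above background elsewhere, at least 15.1-fold lower. Cxcl15 (-2.66) and Ccl20, the ligand of Ccr6 (-3.44), were likewise well above background on this array alone. Cxcl13, which draws B cells into follicles through Cxcr5, stood at 2.19 on this array, at -3.47 and -3.24 on the other Lr11-/- scWAT arrays and at -0.14 or below on the remaining arrays. All 6 epithelium markers were well above background on this array and summed to 42.7, against 8.44 on WT scWAT 3 and at most 0.842 elsewhere. Epcam was at -0.15 there and not well above background on any other array. B lymphocyte markers summed to 2.17 on this array, the lowest of the 12. Whether epithelium carried the Cxcl13, Cxcl15, Cxcl17 and Ccl20 signal was not tested.

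WT BAT 3 was at least 4-fold above both other WT BAT arrays for 9 of the 55 genes (16.4%, against 0.911% of all probes with a signal). They were ligands and receptors of T cells and monocytes. Ccl5, a T cell ligand, was at 2.37 there and at -0.71 and -1.13 on the other WT BAT arrays. Cxcl10, induced by interferon, was at 1.61 against -0.76 and -1.45, and its receptor Cxcr3 at -0.99 against -3.43 and -3.33. Cxcr6 was at -0.23 against -3.15 and -3.31, and Xcl1 at -2.47 against -5.82 and -6.36. Ccl8, Ccl12, Ccr2 and Ccl1 were the others, and Ccl1 was well above background on no other array. Ifng stood at -1.35 on this array and at -3.32 or below on the other 11, and Irf1 at 4.69 against at most 3.77. All 10 T lymphocyte markers were well above background on this array only, with 6 to 9 on the others. They summed to 18.2 there, to 16.3 and 14.6 on the other WT BAT arrays and to 15.8 to 16.6 in Lr11-/- BAT. The part of T cells in these levels was not tested.

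**Figure D3:**
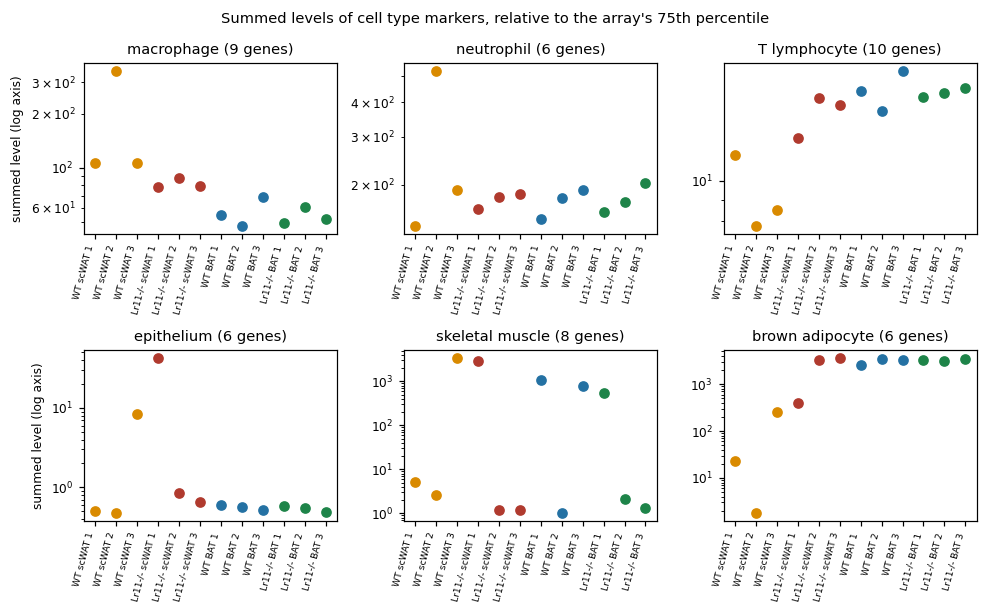
Summed levels of 6 lists of cell type markers on each of the 12 arrays, as linear intensity relative to the array's 75th percentile on a log axis, coloured by group. The highest macrophage and neutrophil sums are on WT scWAT 2 (347 and 520) and the highest epithelium sum is on Lr11-/- scWAT 1 (42.7).

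Between the depots of WT mice, 11 of the 38 tested genes differed. Lower in BAT were 7, the myeloid ligands Ccl6, Ccl8 and Ccl9, the receptors Ccr2 and Cxcr4 and the atypical receptors Ackr1 and Ackr2. Higher in BAT were 4, the scavenging receptor Ackr3, the ligands Ccl27a and Ccl28 and their shared receptor Ccr10. Over all tested probes 9.13% were lower and 15.7% higher, so that 18.4% and 10.5% of these genes compare with a large background. Their median difference was -0.63, with 28 of 38 below 0, against 0.07 over all tested probes. It was -0.17 without WT scWAT 2 (22 of 40 below 0) and -1.19 without WT scWAT 3.

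Ccl6, a CC ligand made by macrophages, was at 5.04, 5.89 and 4.14 on the WT scWAT arrays and at 2.22, 2.15 and 2.76 on the WT BAT arrays. The groups did not overlap, and Ccl6 was lower in BAT by a log2 difference of -2.64 (SE 0.53, limma adjusted p = 0.0081). Ccl9, a ligand of Ccr1, was at 3.64, 5.21 and 2.91 in WT scWAT and at 1.05, 0.95 and 1.63 in WT BAT. It fell by 2.71 (SE 0.54, adjusted p = 0.0079), again without overlap. The monocyte ligand Ccl8 was at 4.44, 5.45 and 1.40 in WT scWAT and at -0.78, -0.57 and 1.99 in WT BAT, where the third array of each group overlapped the other group. Its difference was -3.55 (SE 1.03, adjusted p = 0.031), and Ccl8 is named although the naming rule, which asks for groups that do not overlap, did not pick it.

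Ccr2, the receptor of Ccl2 on monocytes, had 1.02, 0.51 and -0.96 in WT scWAT and -2.56, -2.60 and -0.56 in WT BAT, a difference of -2.10 (SE 0.60, adjusted p = 0.029) with WT BAT 3 inside the range of scWAT. Cxcr4 was at -1.62, 1.63 and -2.07 in WT scWAT and at -3.10, -3.51 and -3.48 in WT BAT (-2.67, SE 0.77, adjusted p = 0.029). Its scWAT mean leaned on WT scWAT 2, though all BAT arrays lay lower. Ackr1, which carries chemokines across the endothelium of venules, was lower by 1.83 (difference -1.83, SE 0.60, adjusted p = 0.047) and Ackr2, a scavenger of inflammatory CC ligands, by 1.88 (difference -1.88, SE 0.50, adjusted p = 0.022), both without overlap. The call of Ackr1 was lost under 16 of 33 alternatives and held in 3 of the 12 that left out 1 array. Of the macrophage markers 5 of 9 were lower in WT BAT as well, among them Adgre1 (-1.81, adjusted p = 0.041), and their sum was 106 to 347 in WT scWAT and 47.6 to 68.5 in WT BAT; its part was not tested.

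Ccr10, a receptor of skin- and mucosa-homing lymphocytes, was at -4.37, -2.99 and -4.74 in WT scWAT and at -0.99, -0.16 and 0.06 in WT BAT. It rose by 3.67 (SE 0.73, limma adjusted p = 0.0077), at least 12.7-fold with WT scWAT 3, which was not well above background, counted at its own level. Its ligand Ccl27a was at -0.01, -0.52 and 1.71 in WT scWAT and at 2.44, 3.09 and 2.78 in WT BAT (2.37, SE 0.57, adjusted p = 0.016). Ccl27a has a near-identical copy, Ccl27b, and overlaps Il11ra1, so its probe may read more than 1 gene. Of its 3 probes 1 differed from the others, with means of -1.38 in WT scWAT and -1.21 in WT BAT. Ccl28, the other ligand of Ccr10, was at -3.18, -6.39 and -3.59 in WT scWAT and at -2.11, -2.04 and -2.37 in WT BAT (2.21, SE 0.66, adjusted p = 0.033). It was not well above background on WT scWAT 2, and the bound was at least 2.95-fold. Ackr3, which takes up Cxcl12, rose by 2.27 (SE 0.56, adjusted p = 0.016), from 2.78, 2.61 and 1.77 in WT scWAT to 5.01, 5.12 and 3.85 in WT BAT. Its ligand Cxcl12 was at 4.35 to 5.03 in WT scWAT and at 4.10 to 5.04 in WT BAT (-0.07, SE 0.34, adjusted p = 0.89).

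**Figure D4:**
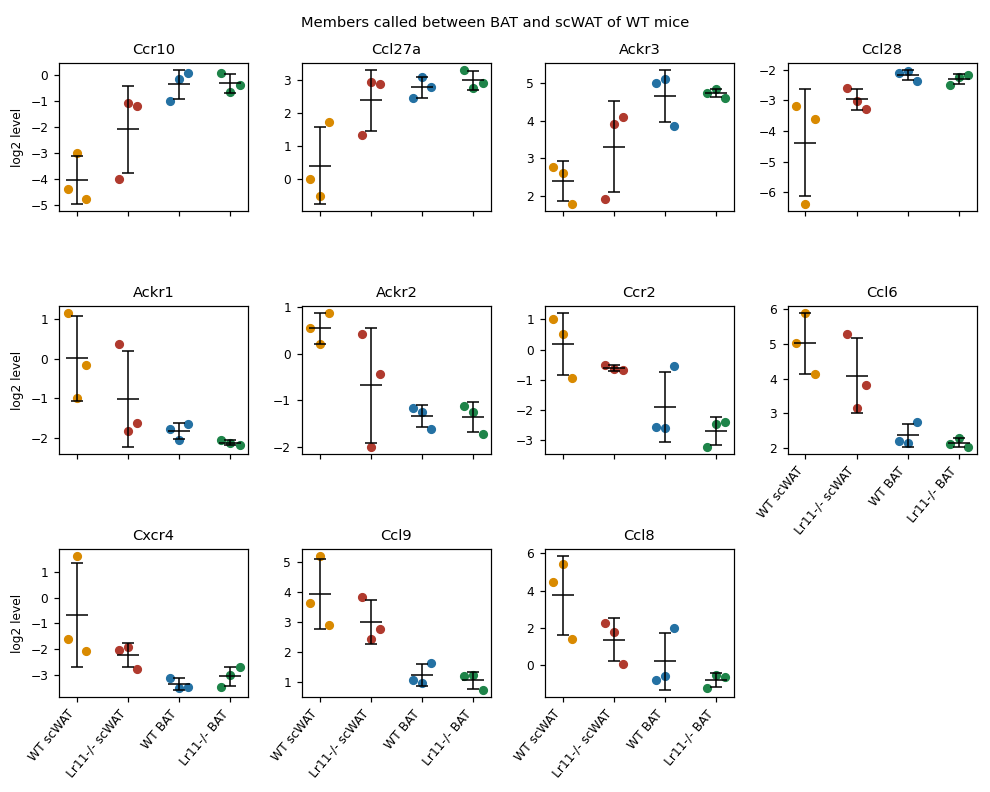
Log2 levels of the 11 genes called between BAT and scWAT of WT mice, ordered from the largest rise to the largest fall, in all 4 groups; circles are arrays, from left to right replicates 1 to 3, and bars are the mean with SD (n = 3). In Ccr10, Ccl27a and Ackr3 the arrays Lr11-/- scWAT 2 and 3 lie near the BAT arrays and Lr11-/- scWAT 1 lies nearer to WT scWAT.

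Other fixed genes did not pass between the WT depots. Ccl2 (-2.10), Ccl5 (-1.11), Cxcl13 (-1.64), Cxcl14 (-0.56), Cx3cr1 (-0.38), Ccl19 (-0.30) and Ccr7 (-0.02) had adjusted p from 0.19 to 0.98. By arrays alone, 6 of the 38 were higher on every WT BAT array than on any WT scWAT array (15.8%, against 24.3% of all tested probes) and 5 lower (13.2%, against 15.9%). Within the first and second array series the 11 called genes kept their direction, with Ccr10 at 3.38 and 3.81, Ccl6 at -2.81 and -2.56 and Ccl8 at -5.22 and -2.71. The first series holds 1 array per group, with its scWAT and BAT arrays on different slides. Depot and slide therefore cannot be told apart there, while the second series was on a single slide. The count of 11 was 3 without WT BAT 2 (7.69%, against 9.47% of all probes) and 4 without WT BAT 1 (10.5%, against 12%). It was 16 without WT scWAT 3 (41%, against 27.9%) and 8 without WT scWAT 2 (20%, against 16.1%). With the slide as a block it was 5 (13.2%, against 12.4%). Ccr10 and Ccl6 passed under every alternative that tested them, and Ccl9 under all but 1.

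In the Lr11-/- mice none of the 38 genes differed between BAT and scWAT by limma at an adjusted p under 0.05, where 0.0218% of all tested probes were higher and 0.0187% lower. At an unadjusted p under 0.05 there were 7 (18.4%, against 9% of all probes), Ackr3, Ccl6, Ccl9, Ccr10, Ccr2, Cx3cl1 and Cxcl10. The differences of the genes called in WT ran the same way but closer to 0 for most, with Ccl6 at -1.94 (SE 0.53, adjusted p = 0.36), Ccl9 at -1.96 (SE 0.54, adjusted p = 0.36), Ccr10 at 1.76 (SE 0.73, adjusted p = 0.51) and Ccl27a at 0.61 (SE 0.57, adjusted p = 0.76). Ccr2 was at -0.51, -0.63 and -0.69 in Lr11-/- scWAT and at -3.24, -2.48 and -2.41 in Lr11-/- BAT, a difference of -2.10 (SE 0.60, adjusted p = 0.37). Lower on every Lr11-/- BAT array than on any Lr11-/- scWAT array were 10 genes (26.3%, against 9.18% of all tested probes), among them Ackr1, Ccl6, Ccl8, Ccl9, Ccr2 and Cxcl10. Higher were 3, Ackr3, Ccl28 and Ccr10 (7.89%, against 14%). Weighting the arrays raised the count called from 0 to 20 (52.6%), of which 14 were lower in BAT, and that over all tested probes from 13 to 5453 (17%). As 2 of the Lr11-/- scWAT arrays had Ucp1 at the level of BAT, the Lr11-/- depots stood closer in that marker than the WT depots, and a difference between the genotypes in these depot differences was not called for any of the 38 genes (tested as the interaction).

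Between the genotypes in scWAT, none of the 38 genes passed, where 3.4% of all tested probes were higher and 1.87% lower in Lr11-/- mice (limma, adjusted p under 0.05). The smallest adjusted p of a member was 0.066. At an unadjusted p under 0.05 there were 8 (21.1%, against 27.6% of all tested probes), Ccl17, Ccl2, Ccl8 and Ackr2 with lower and Ccl25, Ccl27a, Ccr9 and Ccr10 with higher means in Lr11-/- mice. The median difference was -0.61, with 26 of 38 below 0, against 0.04 over all tested probes. Without WT scWAT 2 the median was 0.03 (20 of 40 below 0), without WT scWAT 3 it was -1.11, and without both WT scWAT 2 and Lr11-/- scWAT 1 it was 0.20 (20 of 41 below 0).

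Ccl2 was at 3.71, 4.85 and -0.58 on the WT scWAT arrays and at -0.94, 0.48 and 0.10 on the Lr11-/- scWAT arrays. WT scWAT 3 lay inside the Lr11-/- range, and the difference was -2.78 (SE 1.13, adjusted p = 0.14). Ccl7, a second ligand of Ccr2, was at 2.51, 4.03 and -2.23 in WT and at -1.62, -0.51 and -0.97 in Lr11-/- mice (-2.47, SE 1.32, adjusted p = 0.25). As for Ccl2, WT scWAT 1 and WT scWAT 2 lay above all Lr11-/- scWAT arrays, while WT scWAT 3 lay below all of them. Ccr2 itself differed by -0.80 (SE 0.60, adjusted p = 0.41). The macrophage sum was 106 to 347 in WT and 78.1 to 88.3 in Lr11-/- scWAT, and the 5 tested neutrophil markers had a median difference of -3.25, with S100a8 called (3.67, 5.89 and 1.35 in WT, 0.21, -1.46 and -2.41 in Lr11-/- scWAT, adjusted p = 0.038). The neutrophil sum overlapped, at 142 to 520 in WT and 163 to 186 in Lr11-/- scWAT, and most of it came from Csf3r (means 7.56 and 7.44). The part of these cells in the Ccl2 and Ccl7 values was not tested. Without WT scWAT 3, which held skeletal muscle markers, 8 of 39 genes passed (20.5%, against 14.6% of all probes), 6 of them lower, and Ccl2 was at -4.40 with an adjusted p of 0.0049. Without WT scWAT 2 none passed (against 0.764% of all probes), and Ccl2 was at -1.69 with an adjusted p of 0.40. Without WT scWAT 1 there were 3 (7.69%, against 13.8% of all probes) and without Lr11-/- scWAT 1 there were 6 (15.4%, against 19.6%). Without WT BAT 2, which changes only the shared spread and the probes tested, there was 1, Cxcr5 (2.56%, against 0.418%). Cxcr5 entered that test only through the WT BAT arrays that were left, where it was high. It was not well above background on any Lr11-/- array, so the size of its difference is uncertain.

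Ccr10 was at -4.37, -2.99 and -4.74 in WT and at -4, -1.07 and -1.19 in Lr11-/- scWAT, so that the first Lr11-/- array lay among the WT arrays and the other 2 above them (1.95, SE 0.73, adjusted p = 0.12). Ccl27a had the same pattern with the third WT array inside the Lr11-/- range (1.98, SE 0.57, adjusted p = 0.066), and Ackr3 had 1.91, 3.92 and 4.09 in Lr11-/- scWAT (0.92, SE 0.56, adjusted p = 0.31). These are 3 of the 4 genes called higher in BAT of WT mice, and on Lr11-/- scWAT 2 and 3 the brown adipocyte markers were also near BAT; their part was not tested. Within the first array series the difference was 0.38 for Ccr10 and -0.87 for Ackr3, and within the second 2.74 and 1.82. In the second series alone 3 genes passed, Ccr10 and Ackr3 with higher and 1 with a lower level in Lr11-/- scWAT (7.5% of 40, against 21.7% of all probes). Without WT scWAT 2 and Lr11-/- scWAT 1 there were 7, of which 4 were higher and 3 lower (17.1% of 41, against 18.6%).

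**Figure D5:**
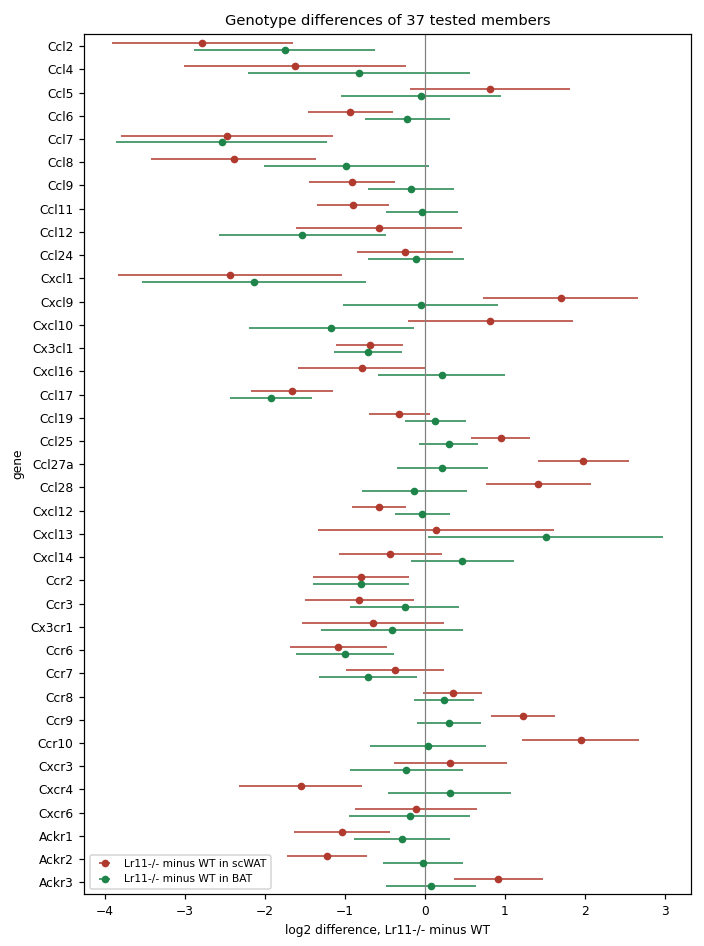
Log2 difference, Lr11-/- minus WT, of 37 of the 38 tested genes in scWAT (red) and BAT (green); points are fitted differences, bars are 1 SE and the order is by role. No difference passed the test; Ccl17 lies below 0 in both tissues (-1.66 and -1.92).

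In BAT none of the 38 genes passed between the genotypes, where 0.00623% of all tested probes were higher and 0.0125% lower. At an unadjusted p under 0.05 there was 1, Ccl17 (2.63%, against 2.12% of all probes), and the median difference was -0.18 with 27 of 38 below 0, against 0.04. Lower on every Lr11-/- BAT array than on any WT BAT array were 6 genes (15.8%, against 4.65% of all tested probes), Ccl2, Ccl7, Cxcl1, Ccl17, Ccr6 and Ccr7. Part of this count rests on signals near background. Ccr6 entered the test through WT scWAT and was well above background on 2 of 3 WT BAT arrays and on no Lr11-/- BAT array. Its nearest arrays were at -4.59 (WT) and -4.66 (Lr11-/-). Ccl7 and Ccl17 were well above background on 1 of 3 Lr11-/- BAT arrays each. None of the 38 genes was higher on every Lr11-/- BAT array, where 7.39% of all probes were. Ccl2 was at 0.32, 0.50 and 0.86 in WT BAT and at -1.80, 0.04 and -1.81 in Lr11-/- BAT (-1.75, SE 1.13, adjusted p = 1). Cxcl1 was at -3.32, -2.73 and -1.06 in WT and at -5.22, -3.53 and -4.74 in Lr11-/- BAT, where it was well above background on 1 array (-2.13, SE 1.40, adjusted p = 1).

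Ccl17, a ligand of Ccr4 made by dendritic cells, was singled out after its values were seen, as the only tested gene that was lower on every Lr11-/- array in both tissues. It was at -3.44, -2.51 and -2.57 in WT scWAT and at -5.47, -4.56 and -3.46 in Lr11-/- scWAT (-1.66, SE 0.51, adjusted p = 0.078). In BAT it was at -2.38, -2.32 and -2.18 in WT and at -4.86, -3.33 and -4.43 in Lr11-/- mice (-1.92, SE 0.51, adjusted p = 1). Its signal was well above background on every WT array but on 1 of 3 Lr11-/- arrays in each tissue, so that it entered the test through the WT groups, where it was high. This bounds the difference at 2.62-fold or more in scWAT and 3.30-fold or more in BAT. In scWAT 1 gene of 38 was lower without overlap (2.63%, against 8.76% of all tested probes) and none was higher (against 11.7%). Its receptor Ccr4 was well above background on 1 of the 12 arrays. The 5 dendritic cell markers summed to 1.28 to 4.73 in WT scWAT and 1.23 to 1.81 in Lr11-/- scWAT, and to 1 to 1.55 in WT BAT and 1.01 to 1.13 in Lr11-/- BAT; their part was not tested.

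Cxcr5, the receptor of Cxcl13 on B cells, was not among the tested genes. It was at -4.40, -4.54 and -3.63 in WT scWAT and at -6.35, -6.87 and -6.63 in Lr11-/- scWAT, and at -4.40, -5.96 and -4.28 in WT BAT against -6.51, -5.76 and -5.37 in Lr11-/- BAT. Of the 6 WT arrays 4 had a Cxcr5 signal well above background, and of the 6 Lr11-/- arrays none. In the gene table Cxcr5 lies on chromosome 9, as does Sorl1, the gene deleted in these mice, with 70 genes that start between them. Of the 57 genes described here 14 lie on this chromosome, and how far the others lie from Sorl1 was not examined. The part of this position in the Cxcr5 signal was not tested. Some B lymphocyte markers were also at lower levels in Lr11-/- scWAT. Ms4a1 was at -2.42, -2.23 and -1.70 in WT and at -4.49, -3.91 and -4.15 in Lr11-/- scWAT, Cd79b was likewise lower on every Lr11-/- scWAT array, and the 7 tested markers had a median difference of -1.18 in scWAT and -0.32 in BAT, with none called. Their summed level was 3.89 to 4.71 in WT and 2.17 to 3.98 in Lr11-/- scWAT, and 3.11 to 3.88 in WT and 2.66 to 3.26 in Lr11-/- BAT. The part of B cells in the Cxcr5 signal was not tested.

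Ligands of lymphoid homing and the other fixed genes showed no called difference between the genotypes. Cxcl12 differed by -0.57 (SE 0.34, adjusted p = 0.30) in scWAT and by -0.03 (SE 0.34, adjusted p = 1) in BAT. Its second probe, also well above background on all 12 arrays, disagreed in scWAT, with means of 2.52 in WT (SD 2.07, 4.86 on WT scWAT 2) and 0.06 in Lr11-/- scWAT (SD 1.07), and 0.68 in WT BAT. The mean of both probes differed by -1.51 between the genotypes in scWAT (adjusted p = 0.11). Ccl19, a ligand of Ccr7 with pseudogene copies that its probes may also read, differed by -0.32 and 0.13 (1 of its 3 probes had means of -0.48 in WT and -1.72 in Lr11-/- scWAT), and Ccr7 by -0.37 and -0.71. Cxcl14 differed by -0.43 in scWAT and 0.47 in BAT, Cx3cr1 by -0.65 and -0.41, Cxcr4 by -1.55 and 0.31 and Ackr1 by -1.03 and -0.29. The difference of Cxcl13 in scWAT was 0.14 (SE 1.47), with the SD of the Lr11-/- group at 3.20 against 1.57 in WT. Probes for Ccl21a and for Cxcl11 were not matched and these genes are not analysed here.

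A test of whether the genotype difference itself differed between scWAT and BAT called none of the 38 genes and 0% of all tested probes. At an unadjusted p under 0.05 it held 0 of the 38 and 11% of all probes. The smallest adjusted p of a member was 0.46, for Ccl27a (1.76, SE 0.81). Weighting the arrays gave 2 calls, Ccl27a and Ccr10 (5.26%, against 4.75% of all probes).

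Of 32 tested genes for G protein signalling, arrestins, kinases and cell movement, 3 were higher in WT BAT (15.7% of all tested probes were) and 5 lower (9.13%). Rgs2, which shortens G protein signals, rose by 2.67 (SE 0.52, limma adjusted p = 0.0071) and Grk3, a kinase of active receptors, by 3.48 (SE 0.87, adjusted p = 0.018). Lower were the arrestin Arrb2 (-1.67, adjusted p = 0.019), the leukocyte lipid kinase Pik3cd (-1.98, adjusted p = 0.021), Pik3r5, Prex1 and Gng2. Of 8 chemoattractant genes outside the naming rule, 3 were lower in WT BAT, against the same 9.13%, the platelet and macrophage chemokine Pf4 (-2.05, adjusted p = 0.021), the chemerin receptor Cmklr1 (-2.02, adjusted p = 0.043) and Dpp4, a protease that trims chemokines (-2.05, adjusted p = 0.049). Cmklr1 entered the test through WT scWAT, where it was high, and was not well above background on any BAT array. Its WT BAT mean (-5.32) lies below the dimmest signals well above background, so the size of its difference is uncertain. Of 10 tested inducers none passed in any comparison, and none of these 3 lists had a call between the genotypes.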

How the data were processed

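Total RNA of 12 mouse adipose samples was labelled with Cy3 and hybridised to Agilent 1-colour arrays. The authors deposited intensity values made with Agilent Feature Extraction 10.10, already background-subtracted, with no scaling between arrays. The deposited table of the whole series held the same numbers (largest difference 0) and gave no alternative of its own.

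Outlier spots were left out, intensities were taken to log2, spots of a probe were averaged and each array's 75th percentile was subtracted. Accessions were matched to the GRCm38.p6 gene table, which was used for names and neighbours, as the array was designed on another build. It lists 67 symbols that meet the naming rule, and 10 of them had no probe; 9 of the 57 genes had more than 1 probe. All 12 arrays entered 1 limma 3.58.1 fit (R 4.3.3, lmFit and eBayes) with a mean for each group. A gene was called where its p, adjusted over all tested probes (Benjamini-Hochberg), was under 0.05. Where a dim array enters a fold written as "at least" or "or more", it was raised to the lowest signal well above background on it. Promoters were searched in Python 3.11.15 and figures drawn with matplotlib 3.10.9. The fit was tested on simulated data. The values of 1 gene are not reported here, though the counts include it.

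Genes named in the text were those called between the genotypes, for each depot comparison the 5 largest called rises and 5 falls without overlap, 14 fixed genes (Ccl2, Ccl5, Ccl19, Ccl21a, Cxcl12, Cxcl13, Cxcl14, Ccr2, Ccr7, Cxcr4, Cxcr5, Cx3cr1, Ackr1 and Ackr3) where tested, and Sorl1; other genes, such as Ccl17, Ccl7, Cxcl1, Cxcr5, Ccr9 and those that stood apart on single arrays, were named after their values were seen, as were Ccl27a and Ccr10 between the genotypes. The genes and lists were chosen with earlier results of these data known. Labels give no replicate numbers, and nothing pairs samples. The study's methods give n = 3 for each RNA source without saying that each array is a separate animal; p-values measure the spread between these samples. The number of arrays limits the precision. Alternatives covered scaling, background correction, filters, blocks, weights, probe choice, thresholds and leaving out arrays.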

Additional observations from a re-analysis of the deposited data

How the results depend on the processing

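Between the genotypes in BAT the count of called genes stayed at 0 under all alternatives except an unadjusted p under 0.05, where it was 1. In scWAT it was 0 and became 1 (Ccl17) without scaling (2.63%, against 2.61% of all probes) and with the array series as a block (against 4.05%). It was 3 in the second array series alone (7.5%, against 21.7%) and 5 with array weights (13.2%, against 12.6%). At an adjusted p under 0.1 it was 3 (7.89%, against 15.2%) and at an unadjusted p under 0.05 it was 8 (21.1%, against 27.6%). Leaving out 1 array at a time gave 0 to 8 in scWAT, with 8 without WT scWAT 3 (20.5%, against 14.6%). The interaction had 1 (Ackr4) in the second series alone (2.5%, against 2.57%) and 2 with array weights (5.26%, against 4.75%). Ackr4 entered the test of the second series only through WT scWAT 2 and WT scWAT 3, where it was high. It was not well above background on any other array. Between the depots of WT mice the 11 calls became 7 with no filter (12.3%, against 10.4% of all probes) and 5 with the slide as a block (13.2%, against 12.4%). With only the arrays compared there were 6 (15.8%, against 12.2%). Leaving out 1 array gave 3 (7.69%, against 9.47%) to 16 (41%, against 27.9%). Between the depots of Lr11-/- mice the count of 0 became 20 with array weights (52.6%, against 17%) and 7 at an unadjusted p (18.4%, against 9%). Some alternatives were chosen after seeing the data. Leaving out WT scWAT 2 and Lr11-/- scWAT 1 gave 7 genes between the genotypes in scWAT (17.1%, against 18.6% of all probes). The interaction then had 1, Ccr10 (2.44%, against 5.98%). Leaving out the 5 arrays with all skeletal muscle markers gave median differences of -1.04 between the genotypes in scWAT and -1.51 between the WT depots. Over all tested probes both medians were 0.08. WT BAT was then reduced to 1 array that is assumed to vary like the other groups. This choice replaced an earlier one after its result was seen: leaving out the 6 arrays with over 4 of these 8 markers kept WT scWAT 2 as the only WT scWAT array, and gave 33 genes between the genotypes in scWAT, 23 in the interaction and 33 between the WT depots, 27 of each 33 being lower (46.3%, 29.8% and 46% of all probes passed there), and turned the difference of Cxcl13 in scWAT from 0.14 to -1.82 (adjusted p = 0.028). No other named difference changed its sign where it passed. Of all probes called between the WT depots, 5038 of 7970 were higher in BAT, and 2483 of 7191 without scaling. Of those called between the genotypes in scWAT, 1091 of 1692 were higher in Lr11-/- mice, and 303 of 838 without scaling, where the median over all tested probes moved from 0.04 to -0.20. The cause of these moves was not tested. No paired analysis was possible because the labels carry no replicate numbers. Many of the genes lay near background, where the levels carry bounds at most.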
